A study of Mus musculus with 6 samples.

Results

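Small nucleolar RNA (snoRNA) host genes carry snoRNAs in their introns. The 8 long noncoding hosts described here, Gas5, Snhg1, Snhg3, Snhg5, Snhg6, Snhg8, Snhg12 and Snhg15, were taken by gene identifier, without its version, from the 52740 gene rows of an RNA sequencing study of C2C12 cells, a mouse myoblast line. All 8 had a row, and all 8 were among the 15022 genes that passed the expression filter. The study held 3 libraries of cells transfected with an siRNA against Cox7a2l (siCOX7A2L) and 3 of cells transfected with a random control siRNA (siCTRL), all in medium with fetal bovine serum. Cox7a2l encodes a mitochondrial protein that joins respiratory complexes into supercomplexes, and the comparison asked which RNAs change when it is depleted. Total RNA was depleted of ribosomal RNA, and both strands were kept apart by dUTP marking. Line, medium and transfection reagent were shared by both groups. The labels do not say whether replicates came from separate cultures, so the spread behind each p-value is that between these libraries and may be technical.

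A host transcript is spliced, and the snoRNA is trimmed out of the excised intron. Box C/D snoRNAs then guide methylation of ribose, and box H/ACA snoRNAs guide conversion of uridine to pseudouridine, mostly in ribosomal RNA. The spliced host RNA that remains encodes no known conserved protein in most of these genes. In mammalian cells many host RNAs begin with a run of pyrimidines, the 5′ terminal oligopyrimidine (TOP) tract shared with messages of ribosomal proteins, are loaded onto ribosomes and are then removed by nonsense-mediated decay. Gas5 was named for its accumulation in growth-arrested mouse cells, and it is a standard example of this coupling of decay to translation.

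The start of each host RNA is shown because a TOP tract, where present, lies there. RefSeq (GRCm38.p6, another build than the mm39 of the deposited data) lists a promoter for 7 of the 8 hosts. Each line gives 30 bases before to 30 bases from the annotated start, 5′ to 3′ on the host's strand, with the longest unbroken run of C and T within 10 bases of the start in capitals. For Gas5 the more downstream of its starts is printed, since the other held a run of only 3 bases.
Gas5 (chr1:161035136-161035195, plus strand): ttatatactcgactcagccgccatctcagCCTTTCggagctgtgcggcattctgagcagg
Snhg1 (chr19:8723457-8723516, plus strand): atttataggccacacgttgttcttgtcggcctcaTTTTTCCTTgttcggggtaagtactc
Snhg3 (chr4:132353657-132353716, minus strand): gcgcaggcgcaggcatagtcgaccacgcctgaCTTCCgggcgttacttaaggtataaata
Snhg5 (chr9:88522868-88522927, minus strand): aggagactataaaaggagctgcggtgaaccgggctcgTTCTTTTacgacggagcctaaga
Snhg8 (chr3:123508307-123508366, minus strand): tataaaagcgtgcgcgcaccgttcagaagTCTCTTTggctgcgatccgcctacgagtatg
Snhg12 (chr4:132308648-132308707, plus strand): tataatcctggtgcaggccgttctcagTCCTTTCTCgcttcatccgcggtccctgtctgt
Snhg15 (chr11:6528731-6528790, minus strand): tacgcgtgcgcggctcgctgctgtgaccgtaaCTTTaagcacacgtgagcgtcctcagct

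Counted over all 8 listed starts of the 7 hosts, both of Gas5 included, a run of at least 5 pyrimidines lay at 6, against 44.9% of all 32851 promoters of the table. A run of at least 7 lay at 4 of the 8 starts (Snhg1, Snhg5, Snhg8 and Snhg12), against 19.7%, and a run of at least 9 at 2 (Snhg1 and Snhg12), against 9.55%. Of the printed runs that of Snhg15 was the shortest, at 4 bases. With the start as position 1, the printed runs began between position -3 (Snhg12) and position 8 (Snhg5). None began at the annotated start itself, and some began with T, so a run counted here is not thereby a TOP tract. Over the whole promoter of 250 bases before to 50 after the start, on either strand, TATAAA occurred at 4 of the 8 starts (Snhg1, Snhg3, Snhg5 and Snhg8), against 13.6% of promoters. The palindrome TGACGTCA, the full cyclic AMP response element, occurred at 2 (the printed start of Gas5 and Snhg15), against 1.79%. CACGTG, an E-box, occurred at 1 (Snhg15), against 7.15%. Each of these is a match of letters only.

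Library totals ran from 9890218 to 15095348 estimated counts in siCOX7A2L, lowest in replicate 3, and from 14310241 to 17077826 in siCTRL. Over all tested genes the deviations of the replicate 3 libraries from their group means correlated with each other at 0.67. With those of the other libraries they correlated at -0.51 to -0.60, which follows in part from the 0.67, since deviations within a group cancel out. Values are therefore given by replicate, and libraries of the same number were compared with each other. The targeted gene was lower in every siCOX7A2L library, with Cox7a2l at 6.72, 5.90 and 3.59 CPM (the count scaled by the library's normalised total), against 58.0, 59.5 and 58.9 CPM in siCTRL (log2 fold change -3.44, edgeR adjusted p = 1.9e-05). An abundant row that has no symbol held 6.97%, 7.57% and 11.1% of counts in siCOX7A2L replicates 1, 2 and 3, against 6.59%, 6.25% and 5.81% in siCTRL. Of 8 myoblast markers all 8 were tested and 0 were called, against 0.726% of all tested genes. The summed level of these markers was 1859 to 3719 CPM in siCOX7A2L and 2035 to 2648 CPM in siCTRL. Of 7 fibroblast markers 5 were tested, 2 had negative estimates and 1 was called, Dcn, the proteoglycan decorin. Dcn was estimated at 3.29 times the siCTRL level (edgeR adjusted p = 0.0419, but 0.822 with no replicate block and 0.209 without replicate 3). Its groups overlapped, at 9.89, 3.65 and 45.1 CPM in siCOX7A2L replicates 1, 2 and 3, against 1.85, 2.48 and 11.7 CPM in siCTRL. The summed level of the fibroblast markers was 1912 to 3244 CPM in siCOX7A2L and 2497 to 2789 CPM in siCTRL. Macrophage and leukocyte markers summed to 8.999 to 10.53 CPM in siCOX7A2L and 10.2 to 11.5 CPM in siCTRL, with Adgre1 at 0 counts in all 6 libraries, and endothelial markers to 4.35 to 8.65 CPM and 4.49 to 5.57 CPM. The part of these markers and of the abundant row in the values below was not tested. In bulk RNA, fewer cells of a kind and less RNA per cell cannot be told apart.

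None of the 8 hosts passed the threshold between the groups. With edgeR and a block for replicate number, 0 of 8 had an adjusted p under 0.05, where 0.726% of all tested genes did (0.293% lower and 0.433% higher). At an unadjusted p under 0.05 there was 1 of 8 (Snhg1, lower), against 17.7% of all genes (8.97% lower), and in DESeq2 1 of 8, against 7.39% of the 26739 genes with a p. The log2 fold change was negative in 7 of 8 hosts, against 48.9% of all genes, and its median was -0.31, against 0.01 for all genes. Snhg3 had the positive estimate. The hosts that were lower in all 3 pairs numbered 3 (Gas5, Snhg1 and Snhg12), against 20.8% of all genes. The 95% intervals of the 8 fold changes together reached from 0.549 to 2.07 times the siCTRL level. Among the alternatives, 0 hosts were called with no replicate block (0.0133% of genes called), replicate 3 against the others as the covariate (1.31%), RLE size factors (0.726%), library size alone (0.386%), DESeq2 (4.5% of genes with an adjusted p, or 4.4% after the edgeR filter), no filter (4.7%), limma on log2(TPM + 1) (0.0133%) and on log2(TPM + 0.1) (0.02%), and without the abundant row (0.726%), replicate 1 (2.45%) or replicate 3 (0.339%). Without replicate 2 there were 2 hosts called, Snhg1 and Snhg5, both lower, against 7.87% of genes in either direction and 4.34% lower.

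**Figure D1:**
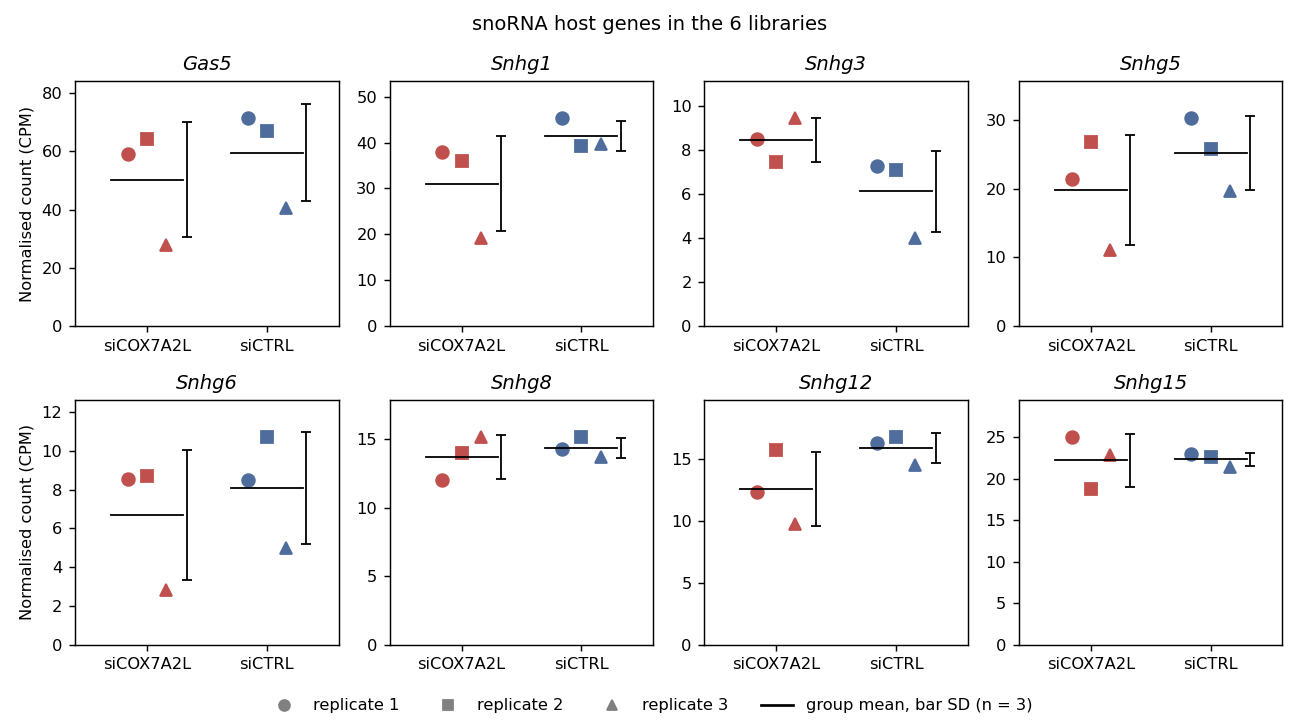
Normalised count (CPM, vertical axis from 0) of each host gene in the 3 siCOX7A2L libraries (left, red) and the 3 siCTRL libraries (right, blue), with symbols for the replicate number, a line at the group mean and a bar of 1 SD. On this scale Snhg1 lies lower and Snhg3 higher in siCOX7A2L without overlap, the other 6 hosts overlap, and the replicate 3 libraries are the lowest of their group for Gas5, Snhg5, Snhg6 and Snhg12.

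Gas5 (ENSMUSG00000053332.14, chromosome 1), host of a row of box C/D snoRNAs, was the most abundant of the 8. It had 59.1, 64.2 and 27.7 CPM in siCOX7A2L replicates 1, 2 and 3, against 71.4, 67.1 and 40.4 CPM in siCTRL. The groups overlapped, and replicate 3 was the lowest library of each. Its level was 50.3 ± 19.7 CPM in siCOX7A2L and 59.6 ± 16.8 CPM in siCTRL (SD, n = 3 each), and the log2 fold change was -0.29 with its standard error (SE) at 0.14 (edgeR adjusted p = 0.320). The pairs gave -0.27, -0.06 and -0.54, each lower in siCOX7A2L. Without replicate 3 the estimate was -0.17 (edgeR adjusted p = 0.587), and without replicate 2 it was -0.41 (edgeR adjusted p = 0.221).

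Snhg1 (ENSMUSG00000108414.2, chromosome 19), which carries 8 annotated snoRNAs, had 38.0, 36.1 and 19.1 CPM in siCOX7A2L, against 45.3, 39.4 and 39.6 CPM in siCTRL. All 3 siCOX7A2L libraries lay below all 3 siCTRL libraries, a separation that 7.62% of all tested genes showed in this direction, and siCOX7A2L replicate 3 was far below the other 5. The log2 fold change was -0.46 (95% interval -0.87 to -0.05, SE 0.18, edgeR adjusted p = 0.228, unadjusted p = 0.0300). The pairs gave -0.25, -0.12 and -1.05. Without replicate 3 the estimate was -0.19 (edgeR adjusted p = 0.557), and without replicate 2 it was -0.64 and passed (edgeR adjusted p = 0.0271).

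Snhg5 (ENSMUSG00000097195.11, chromosome 9), host of the box C/D snoRNAs Snord50a and Snord50b, had 21.4, 26.8 and 11.1 CPM in siCOX7A2L, against 30.2, 25.8 and 19.6 CPM in siCTRL. The groups overlapped through replicate 2, where siCOX7A2L was the higher library. The log2 fold change was -0.40 (SE 0.18, edgeR adjusted p = 0.285). Without replicate 2 it was -0.65 and passed (edgeR adjusted p = 0.0495), and without replicate 3 it was -0.22 (edgeR adjusted p = 0.602).

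Snhg12 (ENSMUSG00000086290.10, chromosome 4), whose annotated snoRNAs are mostly of the box H/ACA kind, had 12.3, 15.7 and 9.77 CPM in siCOX7A2L, against 16.3, 16.8 and 14.5 CPM in siCTRL. In CPM only siCOX7A2L replicate 2 reached into the siCTRL range. The log2 fold change was -0.35 (SE 0.17, edgeR adjusted p = 0.324), and the pairs gave -0.40, -0.09 and -0.56. Snhg6 (ENSMUSG00000098234.8, chromosome 1), host of Snord87, had 8.56, 8.71 and 2.81 CPM in siCOX7A2L, against 8.52, 10.7 and 4.99 CPM in siCTRL. The replicate 3 libraries of both groups were the lowest, and siCOX7A2L replicate 3 rests on 25.0 estimated counts. Its log2 fold change of -0.33 did not pass either (SE 0.23, edgeR adjusted p = 0.486). It was -0.53 without replicate 1 and -0.15 without replicate 3 (edgeR adjusted p = 0.565 and 0.778).

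Estimates for Snhg8 and Snhg15 lay close to 0. Snhg8 (ENSMUSG00000104960.2, chromosome 3), host of Snora24, had 11.98, 13.97 and 15.16 CPM in siCOX7A2L, against 14.3, 15.1 and 13.7 CPM in siCTRL. Its log2 fold change was -0.08 with a 95% interval of -0.45 to 0.30 (edgeR adjusted p = 0.859). Snhg15 (ENSMUSG00000085156.9, chromosome 11), host of Snora9, had 25.0, 18.7 and 22.9 CPM in siCOX7A2L, against 23.0, 22.6 and 21.4 CPM in siCTRL. Its log2 fold change was -0.01 with a 95% interval of -0.36 to 0.33 (edgeR adjusted p = 0.977). In both genes the groups overlapped and no library stood far from the others.

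Snhg3 (ENSMUSG00000085241.8, chromosome 4), host of the box H/ACA snoRNAs Snora73a and Snora73b, had 8.49, 7.44 and 9.43 CPM in siCOX7A2L, against 7.26, 7.09 and 3.999 CPM in siCTRL. In CPM the groups did not overlap, which 7.96% of all tested genes showed in this direction. The lowest siCOX7A2L and the highest siCTRL library nearly met, and in TPM the groups overlapped. The log2 fold change was 0.49 (95% interval -0.07 to 1.05, SE 0.25, edgeR adjusted p = 0.345). The pairs gave 0.22, 0.07 and 1.21, and without replicate 3 the estimate was 0.15 (edgeR adjusted p = 0.795). Of the 31-base words in its annotated transcripts, 21.1% also occur in transcripts of other genes, chiefly Snora73a (13.1%) and Rcc1 (7.94%), so the division of reads among these rows is uncertain. In the other hosts this share ran from 0 (Snhg6) to 14.7% (Snhg5, of which 11.9% with 9330159M07Rik).

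**Figure D2:**
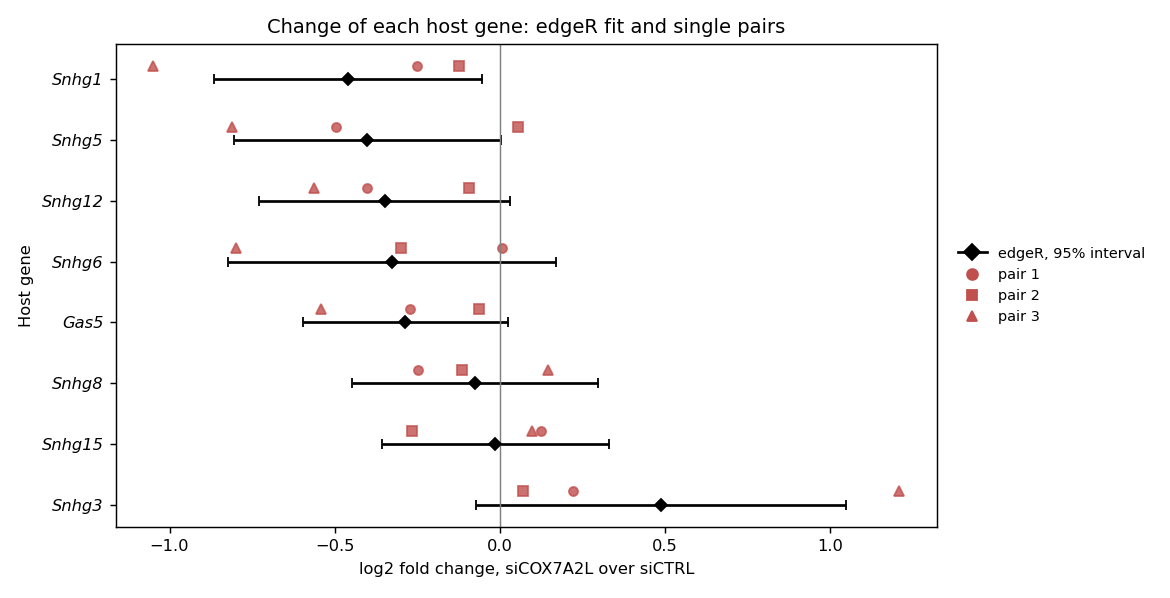
Log2 fold change of siCOX7A2L over siCTRL (horizontal axis) for each host gene, ordered from the lowest estimate. Black diamonds are the edgeR estimates with 95% intervals, and red symbols are the single pairs of libraries; pair 3 lies farthest from 0 in all hosts but Snhg8 and Snhg15, and only the interval of Snhg1 excludes 0.

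In both groups replicate 3 differed from the mean of replicates 1 and 2 by more than the groups differed for Gas5, Snhg5, Snhg6, Snhg8 and Snhg15. On the log2 CPM scale this difference was -1.15 in siCOX7A2L and -0.77 in siCTRL for Gas5, -1.10 and -0.51 for Snhg5, and -1.57 and -0.92 for Snhg6, so these 3 hosts were lower in replicate 3 of both groups. Snhg1 was at -0.95 in siCOX7A2L but at -0.09 in siCTRL, and Snhg12 at -0.50 and -0.19. Snhg8 (0.23 in siCOX7A2L and -0.10 in siCTRL) and Snhg15 (0.08 and -0.09) stayed near 0, while Snhg3 was at 0.24 in siCOX7A2L and -0.82 in siCTRL. The median over the 8 hosts was -0.73 in siCOX7A2L and -0.35 in siCTRL, against -0.02 and -0.01 over all tested genes. Each value sets 1 library against 2 and has no test. Summed over the 8 hosts, the level was 185, 192 and 118 CPM in siCOX7A2L replicates 1, 2 and 3, against 216, 205 and 158 CPM in siCTRL. Over the 6 libraries the mean centred profile of the hosts was most like those of Fam19a5, Aurkb (the mitotic kinase Aurora B), Tubgcp6, Tuba1b and Rps19, with Pearson correlations of 0.997 to 0.998 among 9648 genes of at least 10 CPM. Against the mean of the other hosts, Gas5, Snhg1, Snhg5, Snhg6 and Snhg12 correlated at 0.77 to 0.99. Snhg3, Snhg8 and Snhg15 were at -0.18, -0.25 and -0.11, so the mean profile does not describe them. The 6 points share the split between replicate 3 and the other libraries, and the correlations are given only as a description.

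Per transcript length (TPM), Gas5 was the highest host in each of the 6 libraries, at 48.8 ± 14.9 TPM in siCOX7A2L and 61.8 ± 5.38 TPM in siCTRL (SD, n = 3 each). Snhg1 had 26.2 ± 11.3 TPM in siCOX7A2L and 38.5 ± 2.65 TPM in siCTRL, and Snhg8 had 28.6 ± 3.36 TPM and 33.7 ± 2.04 TPM. Snhg1 was above Snhg8 in 5 of 6 libraries, the exception being siCOX7A2L replicate 3, and their order is not separated by the spread of their ratio (mean log2 ratio -0.02, SD 0.49). Snhg8 was above Snhg5 in 6 of 6 libraries. The other 5 hosts had means of 11.1 to 20.2 TPM in siCOX7A2L and 15.7 to 20.4 TPM in siCTRL, and the order among them changed from library to library, with Snhg12 ranked from the fourth to the eighth and Snhg3 from the third to the seventh.

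The hosted snoRNAs were then read in the same table. The reference annotation (GENCODE M21 on GRCm38) places 30 snoRNAs inside the 8 hosts on the same strand, 10 in Gas5, 8 in Snhg1, 5 in Snhg12, 2 each in Snhg3 and Snhg5, and 1 each in Snhg6, Snhg8 and Snhg15. Of these, 26 had a row in the deposited counts, and the other 4 were not analysed here. Over the 6 libraries 18 rows held 0 counts, among them all 9 of Gas5, and 6 held 1.0 to 12.8 (the highest, Snord22 of Snhg1). The 2 that passed the filter, Snora73a and Snora73b of Snhg3, are the longest at 205 bases, against 60 to 136 bases for the other 24. The pair and, for contrast, the uncounted Snord47 of Gas5 are printed from the GENCODE transcripts, 5′ to 3′, with the ACA box of the H/ACA snoRNAs and the C box (TGATGA) and D box (CTGA) of the C/D snoRNA in capitals.
Snora73a: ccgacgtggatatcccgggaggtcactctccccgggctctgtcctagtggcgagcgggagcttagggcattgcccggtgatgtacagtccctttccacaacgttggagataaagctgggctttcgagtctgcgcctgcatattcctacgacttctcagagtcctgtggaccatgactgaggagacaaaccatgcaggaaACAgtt
Snora73b: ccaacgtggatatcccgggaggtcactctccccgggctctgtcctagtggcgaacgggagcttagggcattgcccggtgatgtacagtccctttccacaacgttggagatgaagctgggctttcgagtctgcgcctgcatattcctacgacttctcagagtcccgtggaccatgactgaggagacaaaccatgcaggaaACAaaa
Snord47: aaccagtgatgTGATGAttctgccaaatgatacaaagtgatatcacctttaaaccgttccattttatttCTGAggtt

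Snora73a and Snora73b match at 198 of 205 aligned positions (96.6%). Of the 31-base words of Snora73a, 43.4% occur in Snora73b and 73.7% in Snhg3 transcripts, so these rows can exchange reads. Snora73a and Snora73b are the U17 snoRNA, which acts in the processing of the ribosomal RNA precursor for the small subunit. Snora73a had 22.3, 23.8 and 12.2 CPM in siCOX7A2L, against 23.8, 18.9 and 19.9 CPM in siCTRL, a log2 fold change of -0.14 (SE 0.20, edgeR adjusted p = 0.770). Snora73b had 50.9, 46.1 and 15.6 CPM in siCOX7A2L, against 57.6, 40.4 and 32.3 CPM in siCTRL, a log2 fold change of -0.31 (SE 0.21, edgeR adjusted p = 0.480). Snora73b was at -0.59 and passed without replicate 2 (edgeR adjusted p = 0.0481). In both, siCOX7A2L replicate 3 was the lowest library and the other 5 overlapped. The ratio of the summed pair to Snhg3 was 8.62, 9.40 and 2.95 in siCOX7A2L replicates 1, 2 and 3, against 11.2, 8.37 and 13.04 in siCTRL, so the low value in siCOX7A2L replicate 3 joins a low snoRNA sum (27.8 CPM) with the highest Snhg3 level. Rcc1, listed below among protein genes that host snoRNAs, overlaps Snhg3 on the same strand and is not part of this ratio.

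Few short snoRNAs had counts in the deposited table. Of 1099 snoRNA rows, small Cajal body RNAs (scaRNAs) included, 912 held 0 counts over the 6 libraries and 87 reached 10 counts. Under 100 bases 1 of 199 rows reached 10 counts (0.503%), from 100 to 149 bases 67 of 854 did (7.85%), and from 150 bases 19 of 46 did (41.3%). The last class holds the scaRNAs Scarna2, Scarna6 and Scarna10, with Scarna2 at 12797 counts. The labels give a library size of 150 to 300 bp. A difference in the mature snoRNAs of Gas5, Snhg1, Snhg6, Snhg8, Snhg12 and Snhg15 was not detectable at these counts.

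**Figure D3:**
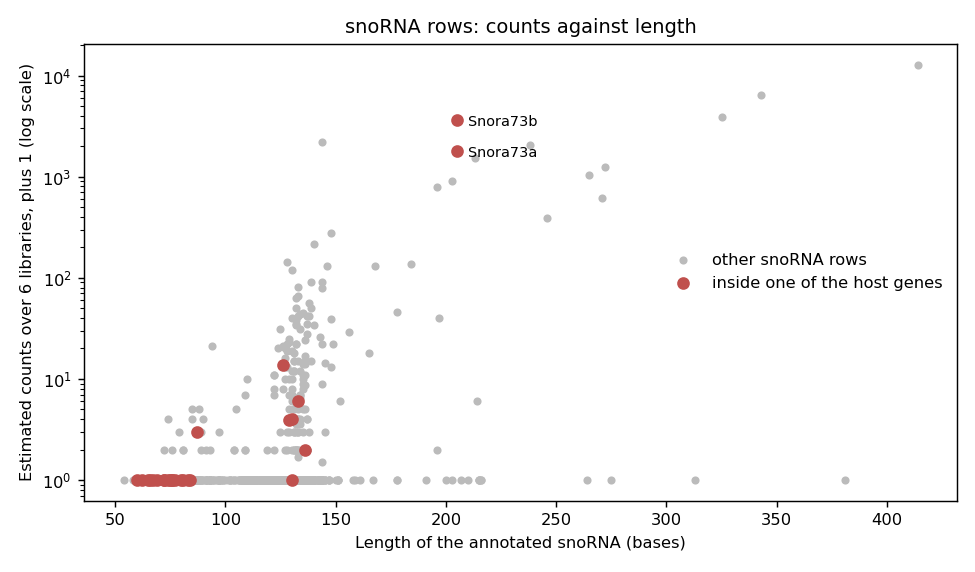
Estimated counts summed over the 6 libraries, plus 1 (vertical log axis), against annotated length in bases (horizontal axis) for 1099 snoRNA rows, scaRNAs included. Red points lie inside 1 of the 8 host genes, of which Snora73a and Snora73b at 205 bases are the only ones above 100 counts; grey points are the other rows.

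Some hosts lie beside or across protein genes. Snhg1 begins 106 bases from the start of Slc3a2, on the opposite strand. Slc3a2 encodes the heavy chain shared by several amino acid transporters. Slc3a2 had 157, 162 and 135 CPM in siCOX7A2L, against 188, 182 and 167 CPM in siCTRL. The groups did not overlap, which 7.62% of all tested genes showed in this direction. The log2 fold change of -0.25 did not pass (SE 0.11, edgeR adjusted p = 0.293). Rcc1, which encodes the nucleotide exchange factor for the GTPase Ran, starts 81 bases from Snhg3 and overlaps it on the same strand. Rcc1 had 54.1, 55.5 and 35.3 CPM in siCOX7A2L, against 68.8, 70.3 and 54.7 CPM in siCTRL, a log2 fold change of -0.44 (SE 0.13, edgeR adjusted p = 0.131, and 0.0487 with no filter), opposite in sign to that of Snhg3. Zbtb37, on the strand opposite Gas5 with 428 bases in common, had a log2 fold change of 0.21 (edgeR adjusted p = 0.496), and Mcmdc2, opposite Snhg6, of 0.10 (edgeR adjusted p = 0.887). Whether counting used the strand is not given in the sources used here, so reads of opposite partners may not be told apart.

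Other genes of the same pathway were read from lists. Over all tested genes 0.726% were called, 48.9% had negative estimates and 20.8% were lower in all 3 pairs. Each count below stands against these shares. Of 16 further noncoding genes listed as hosts 12 had a row and 10 were tested, with 0 called and 4 negative estimates. Whether a snoRNA lies inside each of these genes was not checked in the annotation. Their median log2 fold change was 0.35, on the other side of 0 from the 8 hosts. Both group means lay under 10 CPM for Snhg10, Snhg14, Snhg18, Dancr and Epb41l4aos, all with positive estimates. Above that level Mir22hg was positive, and Snhg17, Snhg20, Zfas1 and 1810032O08Rik were negative. Mir22hg is named as host of a microRNA, so its place among snoRNA hosts, and its part in the list median, are uncertain. Snhg14, a long transcript of an imprinted region, was lowest in p among the 10 tested. It had 3.74, 2.25 and 3.48 CPM in siCOX7A2L, against 1.45, 1.38 and 0.696 CPM in siCTRL (log2 fold change 1.42, SE 0.38, edgeR adjusted p = 0.0968). It passed without replicate 2 (edgeR adjusted p = 0.0124) and with no filter (0.00792). Mir22hg had 38.8, 32.2 and 53.9 CPM in siCOX7A2L, against 26.0, 27.1 and 20.8 CPM in siCTRL (log2 fold change 0.73, edgeR adjusted p = 0.106). Zfas1, a TOP-type host, had a log2 fold change of -0.12 (edgeR adjusted p = 0.707) and Snhg17 of -0.26 (edgeR adjusted p = 0.348). Of 22 ribosomal protein genes that host snoRNAs, 0 were called, 21 had negative estimates and 17 were lower in all 3 pairs, with a median of -0.18. Rpl5, which encodes a protein of the large subunit, had 33.0, 28.4 and 37.2 CPM in siCOX7A2L, against 48.2, 42.4 and 64.6 CPM in siCTRL (log2 fold change -0.64, edgeR adjusted p = 0.0576), and passed in DESeq2 (adjusted p = 0.0103, or 0.0106 on the filtered genes), with replicate 3 set apart (edgeR adjusted p = 0.0494), with no filter (0.00149) and without replicate 2 (0.0130). Of 18 other protein genes that host snoRNAs, 0 were called and 13 were negative (median -0.15), with Rcc1 the lowest in p.

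Of the 8 core proteins of snoRNA particles, 0 were called and 7 had negative estimates (median -0.24), against 0.726% and 48.9% of all tested genes. Nop58 and Nop56, scaffolds of box C/D particles, had log2 fold changes of -0.49 and -0.34 (edgeR adjusted p = 0.138 and 0.208), and Nhp2 of the box H/ACA particle -0.39 (edgeR adjusted p = 0.166). Nop10, also of the box H/ACA particle, was the positive one, at 20.9, 18.7 and 25.5 CPM in siCOX7A2L, against 12.4, 14.0 and 18.1 CPM in siCTRL (log2 fold change 0.55, edgeR adjusted p = 0.113, and 0.0474 with no filter). Factors of particle assembly (13 tested, median -0.02), nonsense-mediated decay and the exon junction complex (18 tested, median -0.04), TOP-type translation factors (15 tested, median -0.03) and the mTORC1 pathway that controls TOP messages (12 tested, median -0.07) had 0 called members each, against 0.726% of all tested genes. Among the decay factors Etf1, the translation release factor, had the lowest p, with a log2 fold change of 0.51 (edgeR adjusted p = 0.0813, but 0.0115 without replicate 2, 0.00683 with no filter, and 0.0223 in DESeq2 or 0.0253 on its filtered genes), and Upf1, the central helicase, had 0.01 (edgeR adjusted p = 0.977). Shq1, Pabpc1 and Eif4ebp2 had the lowest p of the other 3 lists, with log2 fold changes of -0.38, -0.29 and -0.42 (edgeR adjusted p = 0.316, 0.241 and 0.168). Eif4ebp2, which encodes an inhibitor of translation initiation, was at -0.60 and passed without replicate 2 (edgeR adjusted p = 0.0160), passed with no filter (edgeR adjusted p = 0.0333), and was at -0.25 without replicate 1 (edgeR adjusted p = 0.669). No test compared any list with other genes.

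**Figure D4:**
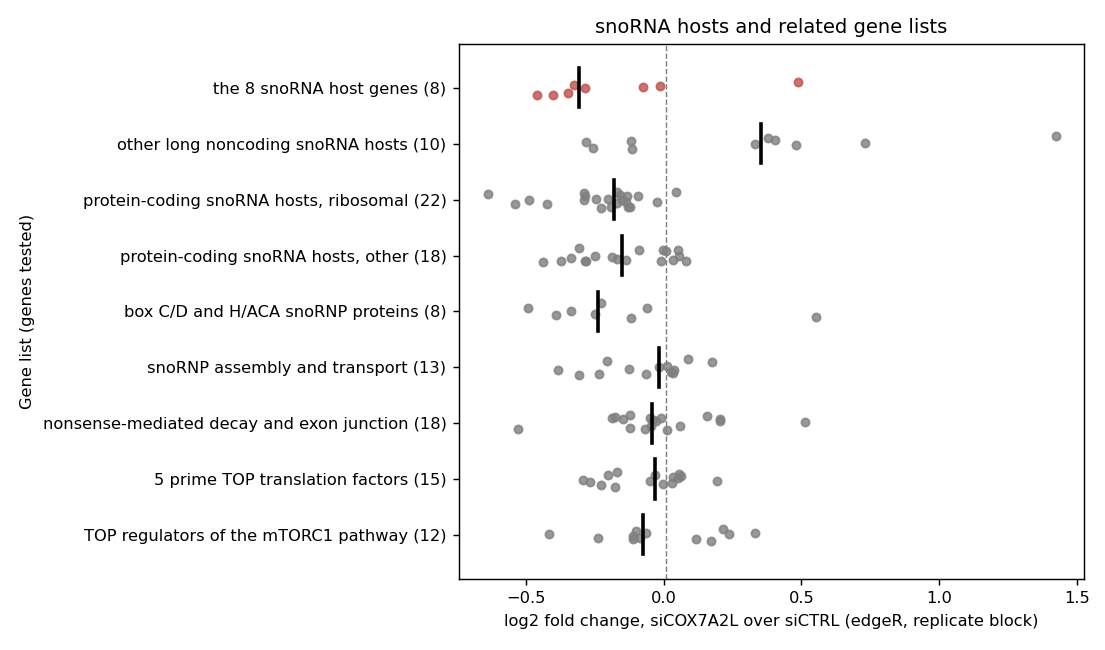
Log2 fold change of siCOX7A2L over siCTRL (horizontal axis) for every tested gene of 9 lists, with the number tested in brackets; red points are the 8 host genes, thick bars are list medians and the dashed line is the median of all 15022 tested genes. The host genes have a median of -0.31 and the further noncoding genes listed as hosts of 0.35, and 0 of the points passed the threshold, against 0.726% of all tested genes.

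In the authors' deposited table none of the 8 hosts had an adjusted p under 0.05, against 6.34% of the 12742 genes with an adjusted p. The log2 fold changes of the authors' deposited table ran from -0.47 (Snhg1) to 0.49 (Snhg3), with adjusted p from 0.145 (Snhg1) to 0.984 (Snhg15), and 3 of 8 had an unadjusted p under 0.05 in the authors' deposited table (Gas5, Snhg1 and Snhg5), against 9.92% of the 26739 genes with a p there.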

How the data were processed

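The authors deposited estimated counts per gene and TPM values for 6 libraries, and a result table that holds, per its file headers, scaled counts (a normalised signal), log2 fold changes, a score (the log2 value over its error) and p-values with adjusted p-values. Per the submitters' processing notes the tools were Salmon 0.13.1, Trim Galore 0.6.4 and DESeq2 1.30.1 on build mm39, with no step named for each. How transcripts were summed to genes, and on which annotation, is not given in the sources used here. Symbols were joined by gene identifier without version to GENCODE M21 (GRCm38), which matched 97.6% of rows. Coordinates printed with start sites are those of RefSeq GRCm38.p6 and were not joined to the counts.

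The estimated counts, for which whole counts had been foreseen, were rounded. The test was that of edgeR 4.0.16 (R 4.3.3, TMM factors, default filter by group, robust glmQLFit and glmQLFTest, Benjamini-Hochberg over 15022 genes at 0.05). The standard error is the log2 fold change over the root of F, and 95% intervals use the fit's degrees of freedom. CPM uses the TMM library sizes, and pair values are log2 CPM with a prior count of 2, which draws low genes towards 0. Replicate number was a block: deviations from the group means correlated at 0.53, 0.45 and 0.67 between libraries of the same number, each above 0.1, although replicates 1 and 2 also correlated across numbers (0.43 and 0.44), and the labels do not explain the numbers. The edgeR step was also run on counts simulated from its own fit. Replicate shifts were shared by both groups there, so that run does not test the block on these libraries. Libraries held 9890218 to 17077826 counts in total.

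The members and lists were chosen with earlier results of these data known. Named genes were the 8 hosts, Cox7a2l, the nearest neighbour of each host within 2 kb of its start or overlapping it, per list up to 3 called genes per direction or else that of lowest p, and the 5 genes most like the hosts. The tested further noncoding hosts other than Snhg14, and Nop56, Nop58, Nhp2 and Upf1, were added after their values were seen. Alternatives were DESeq2 1.42.0 (on all genes with counts and, added after seeing the data, on the filtered genes), limma 3.58.1 on log2(TPM + 1) and log2(TPM + 0.1), other scalings, no filter, other models of the replicate and leaving out each replicate.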

Additional observations from a re-analysis of the deposited data

How the results depend on the processing

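The count of hosts past the threshold was 0 under 12 of 13 alternatives, and ran from 0 to 2 when 1 replicate number was left out, the 2 (Snhg1 and Snhg5) without replicate 2. The pairing was modelled by the replicate block; with no replicate block 2 genes of all tested were called and 0 hosts (median log2 fold change of the hosts -0.25), and with only replicate 3 set apart in its place 197 genes and 0 hosts. The count over all genes, 109 with the block, was 58 with library size alone (41 higher and 17 lower, against 65 and 44), 495 with DESeq2 and the block on all genes with counts, 507 with DESeq2 and the block on the genes that passed the edgeR filter (added after seeing the data), 1257 with no filter, 2 with limma on log2(TPM + 1) and 3 on log2(TPM + 0.1), and 51 to 1210 when 1 replicate number was left out. Of 110 tested genes of the pathway lists 0 were called with the block and 1 with replicate 3 set apart (0.909%, against 1.31% of all genes). DESeq2 called 4 of 108 (3.70%, against 4.5%, or 4.4% on the filtered genes). With no filter 12 of 112 were called (10.7%, against 4.7%), and 0 to 10 when 1 replicate number was left out, the 10 of 111 without replicate 2 (9.01%, against 7.87%). The median of the hosts lay between -0.48 and -0.18 throughout. On TPM, where the median of all genes moved to -0.18 and -0.24, it was -0.46 and -0.48. There Snhg5 was at -0.63 and -0.68, Snhg6 at -0.61 and -0.69, Snhg12 at -0.54 and -0.58 and Snhg3 at 0.22 and 0.23. Estimates of Gas5, Snhg1, Snhg5, Snhg6 and Snhg12 were negative and that of Snhg3 positive under all 13 alternatives. Leaving out 1 replicate number gave -0.088 to 0.10 for Snhg15 (positive without replicate 2), -0.19 to 0.012 for Snhg8 (positive without replicate 1), -0.39 to 0.11 for Snora73a and -0.59 to 0.00 (0.000997) for Snora73b (both positive without replicate 3), -0.031 to 0.62 for the endothelial marker Vwf (negative without replicate 3), and -0.11 to 0.36 for Mcmdc2 (negative without replicate 2). Mcmdc2 was also at -0.13 on log2(TPM + 1) and -0.15 on log2(TPM + 0.1). The cause of these shifts was not tested. The call of Dcn was lost with no replicate block (edgeR adjusted p = 0.822), with library size alone (0.0622), with limma on both TPM scales (0.384 and 0.463) and without replicate 3 (0.209). On log2(TPM + 1) the estimates of Slc3a2 (-0.50), Rcc1 (-0.67), Pabpc1 (-0.45), Etf1 (0.23) and Nop10 (0.27) moved by over 1.5 times, as did Shq1 without replicate 2 (-0.24) and Zbtb37 without replicate 3 (0.08). The host with the widest standard error was Snhg3 (0.25), followed by Snhg6 (0.23), and the lowest count of any host in a library was 25.0 (Snhg6).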
